A study of Mus musculus with 6 samples.

Results

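The HoxB cluster holds 10 genes, Hoxb1 to Hoxb9 and Hoxb13, next to each other on mouse chromosome 11. They were taken by gene symbol from an RNA-seq table of 24002 genes, and all 10 were found in it. The table covers R1 cells, a mouse embryonic stem cell line, sampled at day 6 of treatment with retinoic acid. Stem cells grown in 15% serum replacement and LIF (1000 U/ml), which holds them in self-renewal, were hung in drops for 48 h to form embryoid bodies. The bodies then received retinoic acid at 0.5 mM as the labels give it, a unit that is uncertain because micromolar doses are usual in such protocols. Polyadenylated RNA was sequenced in 3 samples, all of this condition, so a level at day 6 can be given but no change against untreated or earlier cells. Another 3 samples were profiled by ATAC-seq and are not used here. An embryoid body mixes cell types, and whether each sample is a culture of its own is not in the labels, so differences among the 3 may be technical in origin.

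Hox genes encode homeodomain transcription factors that tell cells their place along the head-to-tail axis. Within a cluster, genes at the 3′ end (low numbers) are switched on early and towards the head, and genes at the 5′ end (high numbers) later and towards the tail. Retinoic acid acts on the HoxB cluster through nuclear receptors bound at response elements beside and within it, and patterns the hindbrain and spinal cord in this way. Genes with the same number in the HoxA, HoxB, HoxC and HoxD clusters are paralogues, descended from the same ancestral gene.

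The sample label names an embryonic stem cell. Levels are in FPKM, the fragments of a gene scaled to its transcript length and to the mapped fragments of the library, and so per length. Of 6 pluripotency markers, 3 had at least 1 FPKM in every replicate, against 50.7% of all genes. These were Klf4 (10.4 ± 2.35 FPKM; SD, n = 3), Esrrb (6.17 ± 0.222) and Zfp42 (2.14 ± 0.542), while Pou5f1 was lower, at 0.815 ± 0.0792. Nanog stood at 0.0595, 0.122 and 0.0818 FPKM in replicates 1, 2 and 3. Of 12 neural markers, 12 passed the same threshold, as did 10 of 10 markers of extraembryonic endoderm. Of 7 markers of primitive streak and somite mesoderm, tissues that also use Hox genes, 1 did (Tcf15). The mesoderm genes T and Msgn1 were listed at 0 in every replicate. Median levels were 63.6 FPKM over the neural markers and 10.6 over those of extraembryonic endoderm. They were 1.48 FPKM over the pluripotency markers and 0.0344 over those of primitive streak and somite mesoderm. Depth is known only in relative terms, from the size of the steps among low FPKM values. By this measure replicate 1 was the deepest library, 1.56 times as deep as replicate 2 and 1.17 times as deep as replicate 3.

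Of the 10 HoxB genes, 8 were at 1 FPKM or more in every replicate, against 50.7% of all genes in the table, and these 8 are called expressed here. The exceptions were the genes at the ends of the cluster, Hoxb1 and Hoxb13. The expressed members lay among the higher genes of the libraries: the lowest of them, Hoxb4, ranked 2117th of 24002 by mean FPKM and the highest, Hoxb8, 165th. Counted at 0.5 FPKM the members would be 9, with Hoxb13 added (54.4% of all genes), at 5 FPKM 8 (35.7%) and by a mean of 1 FPKM 8 (51.8%). The median over the 10 members was 70.2 FPKM. In these bulk samples, fewer cells with a transcript and less RNA per cell cannot be told apart.

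**Figure D1:**
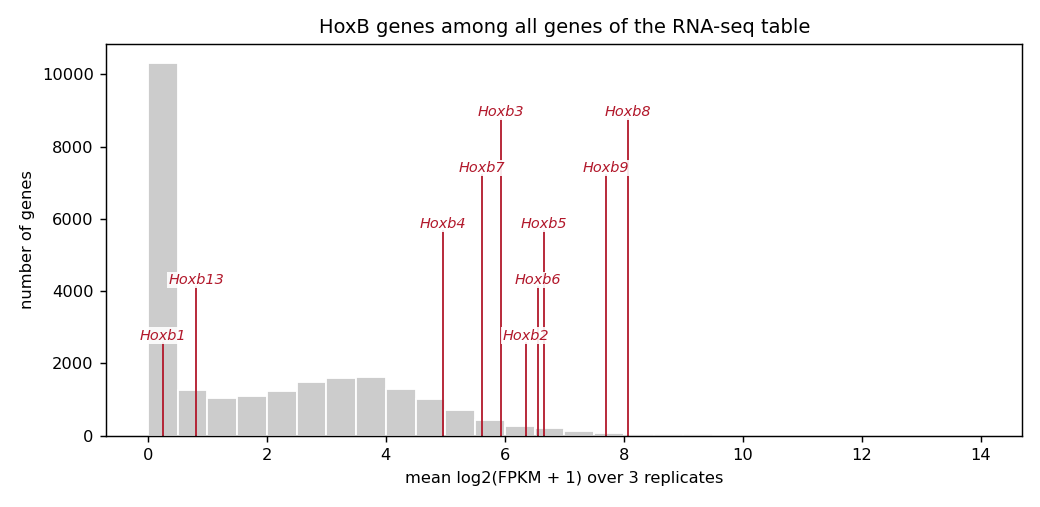
Mean log2(FPKM + 1) over the 3 replicates on the x axis and the number of genes per bin of 0.5 on the y axis, for all 24002 genes (grey bars), with red lines at the HoxB genes. Hoxb1 and Hoxb13 stand in the low bins, and the other members between 4.96 (Hoxb4) and 8.07 (Hoxb8).

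Hoxb8 and Hoxb9, known from the spinal cord and the thoracic segments of the trunk, were the highest members. Hoxb8 stood at 271, 277 and 256 FPKM in replicates 1, 2 and 3, a mean of 268 ± 10.8 (SD, n = 3). Hoxb9 stood at 216, 206 and 201 FPKM. Each value of Hoxb8 lay above each value of Hoxb9, and their FPKM ratio was 1.29 ± 0.0470 (SD, n = 3). Together they made up 53.6 ± 0.914% of the summed FPKM of the cluster.

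A middle group held Hoxb5, Hoxb6 and Hoxb2. Hoxb5, which acts in neural crest of the gut, stood at 99.5, 103 and 98.5 FPKM. Hoxb6, a gene of trunk and lateral mesoderm, stood at 91.9, 92.2 and 93.8 FPKM. These neighbours in the cluster differed least of all members next to each other in level, by a ratio of 1.08 ± 0.0327 of Hoxb5 over Hoxb6, and their ranges did not overlap. Hoxb2, which acts in the hindbrain in the facial motor nucleus, stood at 81.9, 79.4 and 80.1 FPKM, below both in every replicate.

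Hoxb3, Hoxb7 and Hoxb4 were the lower of the expressed members. Hoxb3, a gene of the posterior hindbrain, stood at 60.6, 59.0 and 60.2 FPKM. Hoxb7, whose promoter is widely used to mark kidney collecting ducts, stood at 47.3, 48.7 and 47.9 FPKM. Hoxb4, a gene of the hindbrain and neck levels that also expands blood stem cells when supplied to them, stood at 28.1, 30.6 and 31.7 FPKM and was lowest in replicate 1. The values of these 3 genes did not overlap, and Hoxb8 exceeded Hoxb4 8.89-fold in mean FPKM.

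Hoxb13 and Hoxb1 lay far below the others. Hoxb13, a gene of the tail bud and later of the prostate, stood at 0.913, 0.523 and 0.860 FPKM, with its lowest value in replicate 2. Hoxb1, which specifies rhombomere 4 of the hindbrain, stood at 0.213, 0.222 and 0.146 FPKM, with its lowest value in replicate 3. Both carried a wide relative spread, with coefficients of variation of 27.7% for Hoxb13 and 21.4% for Hoxb1, against 1.08% (Hoxb6) to 6.10% (Hoxb4) among the expressed members.

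Ordered by level, the members ran Hoxb8, Hoxb9, Hoxb5, Hoxb6, Hoxb2, Hoxb3, Hoxb7, Hoxb4, Hoxb13 and Hoxb1. In none of the 9 steps of this order did the ranges of the 3 replicates overlap. An exact permutation test of 3 values against 3 cannot go below p = 0.1, so no step was tested. The replicate spread does not hold errors that all libraries share, such as the transcript length assumed for a gene. Hoxb2 and Hoxb3 overlap the antisense gene Hoxb3os in RefSeq, Hoxb5 and Hoxb6 overlap Hoxb5os, and the annotated span of Hoxb3 contains Hoxb4. No source used here states whether strand was used in counting, so reads of these genes may be shared.

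Along the chromosome the cluster formed a high block with an abrupt step at each end. At the 5′ end, Hoxb9 exceeded its protein-coding neighbour Hoxb13 by 237, 395 and 234 times in the 3 replicates. At the 3′ end, Hoxb2 exceeded Hoxb1 by 384, 358 and 548 times. Steps between neighbours inside the block were far smaller, with mean FPKM ratios from 1.08 ± 0.0327 (Hoxb5 over Hoxb6) to 5.59 ± 0.209 (Hoxb8 over Hoxb7; SD, n = 3).

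The protein-coding genes next to the cluster were low, and genes further out were not. Skap1, a T cell adaptor gene beyond Hoxb1, stood at 0.601, 0.186 and 0.361 FPKM, and the following gene, Snx11, at 19.2 ± 1.06 (SD, n = 3). Beyond Hoxb13, the tubulin glutamylase gene Ttll6 and the autophagy receptor gene Calcoco2 stood at 0.0409 ± 0.00940 and 0.0609 ± 0.0219 FPKM. The next gene, Atp5g1, which encodes a subunit of ATP synthase, stood at 57.8 ± 4.37 FPKM. Between Hoxb13 and Hoxb9 the long noncoding gene Gm53 stood at 1.12, 1.22 and 1.54 FPKM, so it passed the 1 FPKM threshold in every replicate. Gm11538, another long noncoding gene there, stood below it, at 0.268, 0.119 and 0.203 FPKM. The microRNA genes within the cluster, Mir196a-1 and Mir10a, were listed at 0, in libraries of polyadenylated RNA that do not hold mature microRNAs.

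**Figure D2:**
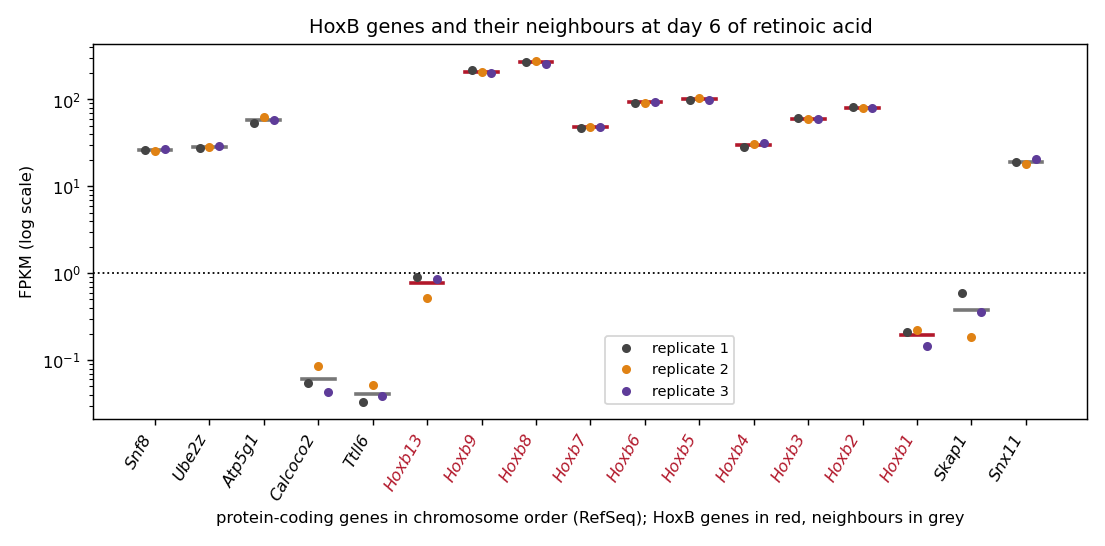
FPKM on a log scale (y axis) of the HoxB genes (red bars) and the nearest protein-coding genes (grey bars) in chromosome order, with a point per replicate and a bar at the mean. The dotted line marks 1 FPKM. Hoxb9 to Hoxb2 lie between 28.1 and 277 FPKM, Hoxb13 and Hoxb1 below 1 FPKM, as do Calcoco2, Ttll6 and Skap1.

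Along the cluster the level did not follow the gene number closely. Spearman's rho between gene number and mean log2(FPKM + 1) was 0.345 over the 10 genes and had the same value in each replicate, which is a description over genes of the same libraries. Over the 8 expressed genes, which form the block, it was 0.571. The block had its peak at Hoxb8 and Hoxb9, a further rise at Hoxb5 and Hoxb6, and low points at Hoxb7 and Hoxb4.

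RefSeq promoter sequences (GRCm38.p6, 250 bases before to 50 after the start) were at hand for 3 members, and they include the highest gene, the lowest and the lowest of the expressed ones. Each is on the plus strand, with Hoxb8 at chr11:96281655-96281954, Hoxb4 at chr11:96318017-96318316 and Hoxb1 at chr11:96365508-96365807. Capitals mark TATAAA, the TATA box core, TGATNNAT, a site shape bound by Pbx and Hox proteins together, and AGGTCA, the core sequence to which a retinoic acid receptor binds, each on either strand.
Hoxb8: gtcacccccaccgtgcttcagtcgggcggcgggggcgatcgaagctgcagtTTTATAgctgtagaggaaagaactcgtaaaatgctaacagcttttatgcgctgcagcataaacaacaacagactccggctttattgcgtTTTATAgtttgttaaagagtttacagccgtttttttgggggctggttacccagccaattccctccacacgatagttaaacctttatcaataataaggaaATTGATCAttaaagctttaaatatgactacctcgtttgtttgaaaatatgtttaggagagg
Hoxb4: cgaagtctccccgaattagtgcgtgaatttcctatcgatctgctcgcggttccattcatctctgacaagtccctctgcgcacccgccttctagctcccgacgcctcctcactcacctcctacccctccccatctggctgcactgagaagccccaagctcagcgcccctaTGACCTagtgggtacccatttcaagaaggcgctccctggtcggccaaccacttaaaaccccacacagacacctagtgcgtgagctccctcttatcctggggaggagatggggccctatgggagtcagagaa
Hoxb1: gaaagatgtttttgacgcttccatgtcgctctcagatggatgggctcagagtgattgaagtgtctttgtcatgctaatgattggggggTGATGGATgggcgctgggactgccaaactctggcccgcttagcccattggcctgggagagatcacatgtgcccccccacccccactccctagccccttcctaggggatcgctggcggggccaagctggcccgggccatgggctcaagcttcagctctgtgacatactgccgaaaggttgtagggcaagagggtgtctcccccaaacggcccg

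The Hoxb8 sequence held TATAAA on the minus strand in 2 places, with their first bases 199 and 110 bases before the start, and TGATNNAT on the minus strand 11 bases before it. The Hoxb1 sequence held TGATNNAT on the plus strand 162 bases before the start, and Hoxb1 is known to maintain its own transcription through such Pbx and Hox sites. The Hoxb4 sequence held AGGTCA on the minus strand 81 bases before the start. No motif overlapped another in these sequences. Over all 32851 promoters of the table, TATAAA was present in 13.6%, TGATNNAT in 8.85% and AGGTCA in 16.3%. Direct repeats of AGGTCA spaced by 2 or 5 bases, the form of the classical retinoic acid response elements, were in none of the 3 sequences. For each spacing they were in 3 promoters of the table. Only these exact letters were searched, so a lack of response elements cannot be read from this. The Hoxb8 sequence had 42.3% G and C, against 58.0% for Hoxb4, 59.3% for Hoxb1 and a median of 52.7% over the table. These matches describe the letters in the windows, and their part in the levels was not tested.

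Set against paralogues, HoxB genes were the higher in 17 of 20 pairs in every replicate and the lower in 3 in every replicate. They led 7 of the 10 paralogue groups by mean FPKM, those numbered 2, 3, 6, 7, 8, 9 and 13. These comparisons are between different genes of the same libraries and were not tested.

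On the scale of log2(FPKM + 1), the widest gaps were in groups 8 and 9. Hoxb9 stood at 208 ± 7.60 FPKM, against 1.36 ± 0.197 for Hoxa9, 2.67 ± 0.301 for Hoxc9 and 0.923 ± 0.114 for Hoxd9 (SD, n = 3). Its FPKM ratio was 155 ± 25.3 over Hoxa9, 78.5 ± 8.28 over Hoxc9 and 228 ± 30.5 over Hoxd9. Hoxb8 stood at 268 ± 10.8 FPKM, against 11.1 ± 0.614 for Hoxc8 and 10.2 ± 0.743 for Hoxd8, with ratios of 24.1 ± 1.49 and 26.3 ± 2.33. In both groups all 3 replicates of the HoxB gene lay above all values of the paralogues. For Hoxb13, 0.765 ± 0.212 FPKM compared with 0.143 ± 0.0613 for Hoxc13 and 0.0811 ± 0.0187 for Hoxd13, and Hoxa13 was listed at 0, 0.0475 and 0.

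In the middle groups the HoxB genes and their paralogues were of similar order. Hoxb6 stood above Hoxc6 by a ratio of 1.08 ± 0.0158 and above Hoxa6 by 4.69 ± 0.275 (SD, n = 3). Hoxb7 exceeded Hoxa7 by 3.69 ± 0.252 and Hoxb2 exceeded Hoxa2 by 2.68 ± 0.154. Hoxb3 stood above Hoxa3 and Hoxd3 by 1.51 ± 0.0131 and 2.31 ± 0.00624. Hoxb4 stood above Hoxa4 by 1.41 ± 0.0280 and above Hoxd4 by 1.16 ± 0.0734, and Hoxb5 exceeded Hoxc5 by 3.28 ± 0.275.

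The 3 pairs in which the HoxB gene was lower involved Hoxb1, Hoxb4 and Hoxb5. Hoxb1 stood at 0.194 ± 0.0414 FPKM, against 1.25 ± 0.266 for Hoxd1, so its FPKM ratio over Hoxd1 was 0.156 ± 0.0206 (SD, n = 3). Each value of Hoxb1 lay below each value of Hoxd1. Hoxb4 stood at 30.1 ± 1.84 FPKM, against 101 ± 1.11 for Hoxc4, and Hoxb5 at 100 ± 2.27, against 150 ± 3.35 for Hoxa5.

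**Figure D3:**
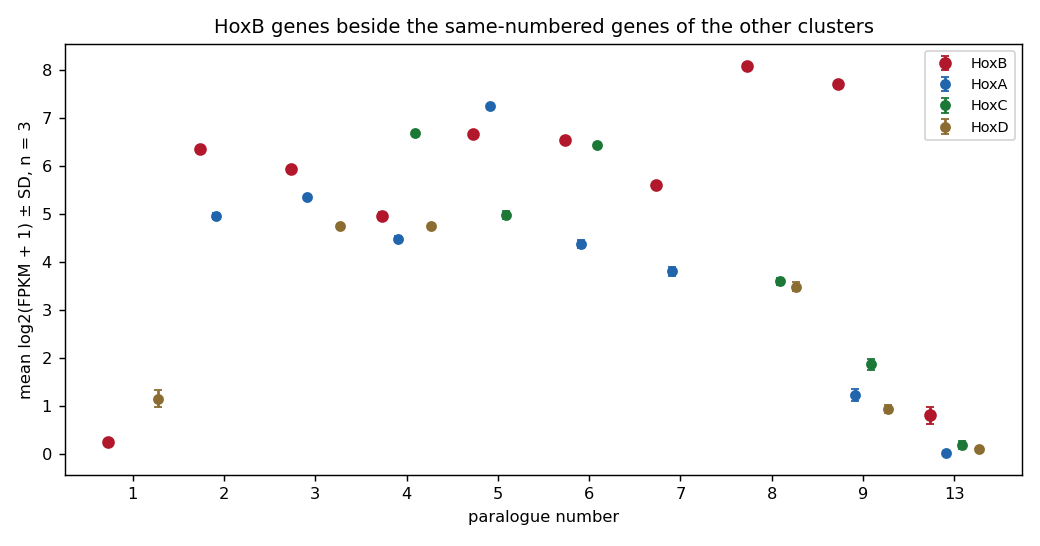
Mean log2(FPKM + 1) with the SD over 3 replicates (y axis) by paralogue number (x axis) for HoxB and for the same-numbered genes of HoxA, HoxC and HoxD analysed here. HoxB genes stand highest in groups 8 and 9, at 8.07 and 7.71, and Hoxb1 stands below Hoxd1 in group 1, at 0.25.

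HoxB held most of the Hox signal per length. The HoxB genes summed to 898, 897 and 870 FPKM in the 3 replicates, which is 60.8 ± 0.554% of the sum over the 38 Hox genes analysed (SD, n = 3). HoxA made up 18.9 ± 0.225%, HoxC 15.9 ± 0.377% and HoxD 4.42 ± 0.0623%. Among the 10 highest of these genes, 7 were HoxB genes, and the others were Hoxa5, Hoxc4 and Hoxc6.

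The partners and receptors known to act with or on HoxB genes were present. All 9 TALE cofactor genes, whose proteins bind DNA together with Hox proteins, were expressed, from Pbx4 (3.16 ± 0.302 FPKM) to Pbx3 (117 ± 2.70; SD, n = 3). All 6 retinoid receptor genes were expressed, from Rarg (3.70 ± 0.621) to Rara (30.6 ± 0.647). These shares compare with the 50.7% of all genes.

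The list of other upstream factors of HoxB genes had 2 of 6 members expressed, against 50.7% of all genes, a share not read as a difference. Egr2, which drives Hoxb2 in rhombomeres 3 and 5, stood at 0.144, 0.0374 and 0.113 FPKM. Gdf11, a ligand that promotes the change from trunk to tail Hox genes, stood at 15.3 ± 0.619 FPKM, and Nr6a1, a nuclear receptor gene of trunk formation, at 3.71 ± 0.479 (SD, n = 3). The caudal genes, which activate trunk Hox genes in the early tail end of the embryo, were low, with Cdx2 at 0.480, 0.641 and 0.745 FPKM and Cdx1 listed at 0. In the same libraries, with all 3 caudal genes below 1 FPKM, Hoxb6 to Hoxb9 stood at 47.3 FPKM or more in each replicate. Levels of the caudal genes before day 6 were not measured, and their part in the HoxB levels was not tested. Of the rhombomere genes, 2 of 5 were expressed, namely Gbx2 and Epha4, which is likewise near the 50.7% of all genes.

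The 8 expressed HoxB genes varied little between replicates. Their median SD of log2(FPKM + 1) was 0.0274, against 0.0486 over the 6116 genes that averaged 10 FPKM or more. The lowest of the 8, Hoxb4, averaged 30.1 FPKM. The sets were not matched for level, so the difference is not read as a trait of HoxB genes. Relative to their own means, the 8 genes had a median deviation of 0.0027, 0.0077 and -0.0044 (log2) in replicates 1, 2 and 3. In replicate 1, 4 of the 8 lay above 0, as did 6230 of the 12432 genes that averaged 1 FPKM or more. The farthest of the 8 was Hoxb4, at -0.10 in replicate 1.

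Replicate 1 stood apart for extraembryonic endoderm genes, though not for them alone. Their list was chosen with earlier results of these data known, so its deviation is a description and no independent support. Extraembryonic endoderm forms yolk sac tissue and arises in embryoid bodies beside neural cells. All 10 endoderm markers lay below their own means in replicate 1, with a median deviation of -0.33, against 0.14 and 0.17 in replicates 2 and 3. Among them, Afp was barely below, at -0.016, and had its lowest value in replicate 2, at -0.14. Of the 12432 genes that averaged 1 FPKM or more, 6202 lay below their own means in replicate 1. The central 95% of these genes ran from -0.245 to 0.126 there. The summed level of the endoderm markers was 404 FPKM in replicate 1, 545 in replicate 2 and 554 in replicate 3, and none was at 0. Over the same replicates the summed level of the HoxB genes was 898, 897 and 870 FPKM. The 12 neural markers had medians of 0.046, -0.0036 and -0.043. The 3 pluripotency markers that averaged 1 FPKM or more had medians of -0.30, 0.19 and 0.11. Of these, 2 lay below their own means in replicate 1 and 1 above.

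**Figure D4:**
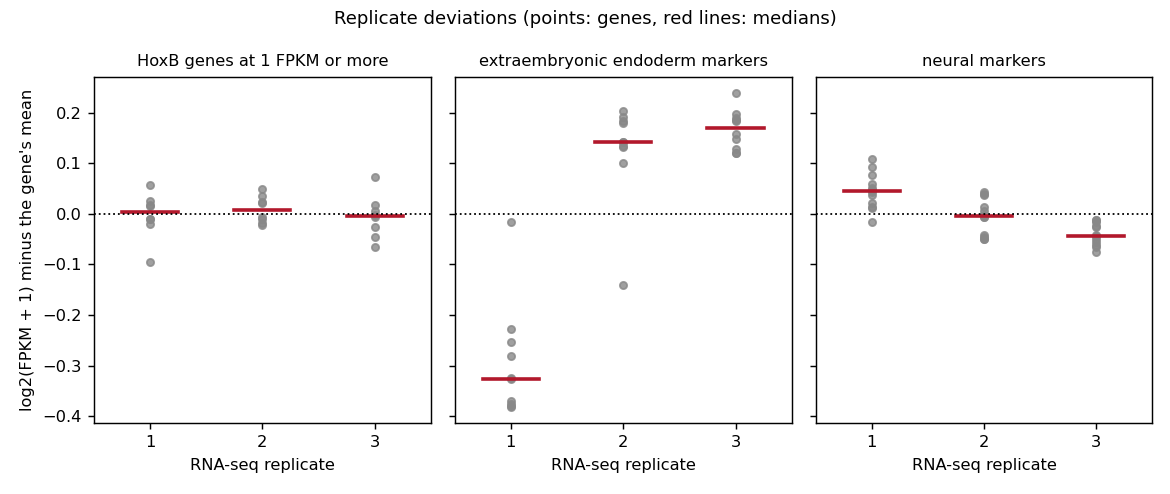
Deviation of log2(FPKM + 1) from the gene's mean over the replicates (y axis) by replicate (x axis), for the 8 expressed HoxB genes, 10 extraembryonic endoderm markers and 12 neural markers. Points are genes and red lines medians. HoxB medians stay between -0.0044 and 0.0077, while the endoderm median is -0.33 in replicate 1.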

How the data were processed

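Polyadenylated RNA was sequenced in 3 samples, assigned and numbered from their titles. Per the submitters' processing notes, Bowtie, Cufflinks and the build mm9 were used, and their versions and settings are not stated. The table as deposited gives no unit. Its values were read as FPKM, since the authors used Cufflinks per the submitters' processing notes. An exact 0 can be a failed estimate and is given as listed at 0.

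With a single condition, no test was made. Levels were described by FPKM per replicate, ratios within replicates and log2(FPKM + 1), whose pseudocount of 1 understates differences of low genes. Genes that averaged 1 FPKM or more entered the deviations, and those that averaged 10 or more the SD. Relative depth came from the most common ratio of values between 0.001 and 0.1 FPKM, assumed to mark equal read numbers and matched within 0.004 in natural log units (234 of 1046 genes for replicates 1 and 2, 207 of 1170 for 1 and 3); the estimator was tested on simulated data. Gene order, chromosome and promoters are those of RefSeq for GRCm38.p6. The accessible regions, in mm9, were not used, since the annotation at hand is of another build. Some genes are not reported here and enter no list, sum or pair. The members and gene lists were chosen with earlier results of these data known. Named genes are the members and, of each list, the highest, the lowest and those matching a HoxB gene by number, position or known regulation. Nanog, Pou5f1, Snx11, Gm11538 and genes named by a count of 5 or fewer were added after their values were seen. Python 3.11.15, pandas 2.3.3 and numpy 2.4.6 were used.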

Additional observations from a re-analysis of the deposited data

How the results depend on the processing

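No paired analysis was possible because the RNA-seq samples form 1 group, and the ATAC-seq regions carry no values per sample. The count of 8 expressed HoxB genes held with the mean over replicates, upper quartile scaling, a threshold of 5 FPKM and without each replicate in turn, and was 9 at 0.5 FPKM. The 17 pairs with a higher HoxB gene were 17 under every alternative run for them. This was fixed beforehand, as each pair had the same direction in every replicate and no alternative reorders genes within a replicate. The 9 steps of the order without overlap were 9 under every alternative. Leaving out a replicate can only narrow the ranges, so only upper quartile scaling could have lowered this number. The HoxB share of Hox FPKM lay between 60.6% and 61.2% without a replicate. Without the members below 1 FPKM, rho between gene number and level was 0.571 instead of 0.345, over 8 instead of 10 genes. All 100 alternative paralogue differences kept their sign, which was fixed in the same way as the 17 pairs. Of these differences, 9 moved by more than the replicate SD, all with a pseudocount of 0.1, which changes low genes most. On the log2 scale, Hoxb13 minus Hoxa13 was 2.89 instead of 0.79 and Hoxb13 minus Hoxd13 2.23 instead of 0.70. Hoxb13 minus Hoxc13 was 1.83 instead of 0.62, and Hoxb1 minus Hoxd1 -2.19 instead of -0.91. The gaps of Hoxb9 widened too, to 7.16 from 6.47 for Hoxa9, 6.24 from 5.83 for Hoxc9 and 7.67 from 6.76 for Hoxd9. Hoxb8 minus Hoxc8 was 4.58 instead of 4.47, and Hoxb3 minus Hoxd3 1.20 instead of 1.18. Upper quartile scaling and the pseudocount of 0.1 left the farthest HoxB median deviation at 0.0075 and 0.0079, alternatives added after the data were seen. Unknown read totals limit Hoxb1 and Hoxb13 most, since their values rest on the fewest reads per length.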

Other observations

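The list of Polycomb and trithorax genes, whose proteins hold Hox clusters silent or active, also held Ctcf. Its members were all expressed, 14 of 14, against 50.7% of all genes in the table, with a median of 17.2 FPKM. Rnf2, a ubiquitin ligase of Polycomb complex 1, was the highest at 35.9 ± 0.613 FPKM, and Kdm6a, a demethylase that removes the Polycomb mark, the lowest at 4.79 ± 0.210 (SD, n = 3). Kdm6b, its relative, stood at 31.2 ± 0.913 FPKM, and Ctcf, whose protein forms boundaries within Hox clusters, at 27.1 ± 0.479. No earlier state was measured, so these levels cannot be set against a cluster before its induction.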
